A study of Mus musculus with 12 samples.

Results

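Undifferentiated preadipocytes that lacked Acly were compared with undifferentiated preadipocytes that kept it, in 3 libraries of each genotype, 6 of the 12 libraries of the study. The 6 were chosen by their genotype and stage labels, with no measured value in the choice. The study measured RNA levels in both genotypes before and after differentiation into adipocytes, and its design text gives the question as what Acly does to gene regulation during that process.

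Both groups were preadipocytes from adipose tissue of C57Bl/6 mice, immortalised with SV40, grown to confluence in DMEM with serum and taken on day 0, before any adipogenic agent was added. Aclyf/f cells carry an Acly gene flanked by loxP sites, which stays intact, and served as the control. Acly-/- cells have the gene deleted. The means of deletion, the exons removed, the age of the mice, and whether the 3 libraries of a group came from separate cultures, animals or clones were not given in the sources used here. Any p-value rests on the spread between libraries, which may be technical. If each genotype was a single cell line, the loss of Acly cannot be told apart from other differences between lines or from the deletion procedure. The other 6 libraries were Aclyf/f and Acly-/- adipocytes taken on day 4 of differentiation with a cocktail that held rosiglitazone. They entered the estimate of spread and a comparison of stages at the end.

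Levels are FPKM, fragment numbers scaled by transcript length and by the fragments mapped in the library. Fragment depth, estimated from the steps that 1 fragment makes in low values, ranged from 7510000 to 10800000 in Aclyf/f and from 7730000 to 14100000 in Acly-/- libraries, so that 1 fragment on a transcript of 2 kb was worth 0.0355 to 0.0665 FPKM. Between 11016 and 11143 genes per library reached 1 FPKM. Across genes, log2 levels of a library correlated with its own group at r = 0.986 to 0.991 over 6 pairs, and with the other genotype at 0.950 to 0.964 over 9 pairs. Acly-/- library 3 stood apart: short RNA genes held 10.5% of its summed FPKM against 0.199% to 3.66% in the other 5. Counts without it are given below for some lists, not for every list that moved.

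Cell type markers were read first. Of the 9 preadipocyte or fibroblast markers, 7 reached 1 FPKM in at least 1 library, and their summed level was 2412 to 2916 FPKM in Aclyf/f and 2851 to 3892 FPKM in Acly-/- libraries. Col1a2, Pdgfra, Pdgfrb, Ly6a and Pparg were among them, while Thy1 reached at most 0.844 FPKM and Dlk1 at most 0.434 FPKM in the 6 libraries. The adipocyte hormones and enzymes Lep and Pck1 were at the table's floor of 0.01 FPKM in all 6, and Adipoq lay between 2.43 and 3.68 FPKM. The adipocyte list still summed to 506 to 522 FPKM in Aclyf/f and 193 to 229 FPKM in Acly-/- libraries, nearly all of it Fabp4. The leukocyte markers Ptprc, Adgre1 and Tyrobp and the endothelial markers Cdh5 and Tie1 were at the floor in all 6 libraries. The leukocyte list summed to 4.92 to 7.61 FPKM in Aclyf/f and 4.98 to 7.91 FPKM in Acly-/- libraries. Some markers of other cell types moved: the epithelial list summed to 1.64 to 2.34 FPKM in Aclyf/f and 4.18 to 6.42 FPKM in Acly-/- libraries, mostly Krt19. The bone and cartilage list summed to 15.1 to 16.4 against 19.3 to 22.7 FPKM. Of its 3 markers tested, Runx2 and Sp7 were called higher and Alpl lower, the last at 1.17 to 1.77 against 0.666 to 1.25 FPKM. Endothelial Kdr was called lower, at 1.26 to 1.54 against 0.626 to 0.818 FPKM. The part of these cell types in the results was not tested.

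Acly encodes ATP citrate lyase, which splits citrate exported from mitochondria into acetyl-CoA and oxaloacetate. Its acetyl-CoA feeds fatty acid and sterol synthesis in the cytosol and acetylation of histones, and ACSS2, which makes acetyl-CoA from acetate, is the other main source outside mitochondria. Sterol and fatty acid enzymes are driven by the SREBP factors, amino acid supply genes by ATF4 of the integrated stress response, antiviral genes by interferons through factors of the STAT and IRF families, and contractile genes by SRF with its MRTF partners (here Mkl1 and Mkl2).

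The genotypes were compared with limma, a linear model fitted to log2(FPKM + 1) across all genes with Benjamini-Hochberg adjustment. They differed in 42.2% of the genes tested (4966 of 11777) at an adjusted p under 0.05 in limma. Of these, 2325 genes rose in Acly-/- cells, 19.7% of those tested, and 2641 fell, 22.4%. Calls that also moved by at least 1 on the log2 scale numbered 602, or 5.11% of the genes tested, with 350 higher and 252 lower. The median log2 fold change over all genes tested was −0.01, and the middle 50% lay between −0.24 and 0.21. These shares are the background against which each list below is read. Lists whose share called lay near 19.7% higher and 22.4% lower say nothing particular about their members. Since libraries were bulk cultures, fewer cells of a kind and less RNA per cell cannot be told apart.

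**Figure D1:**
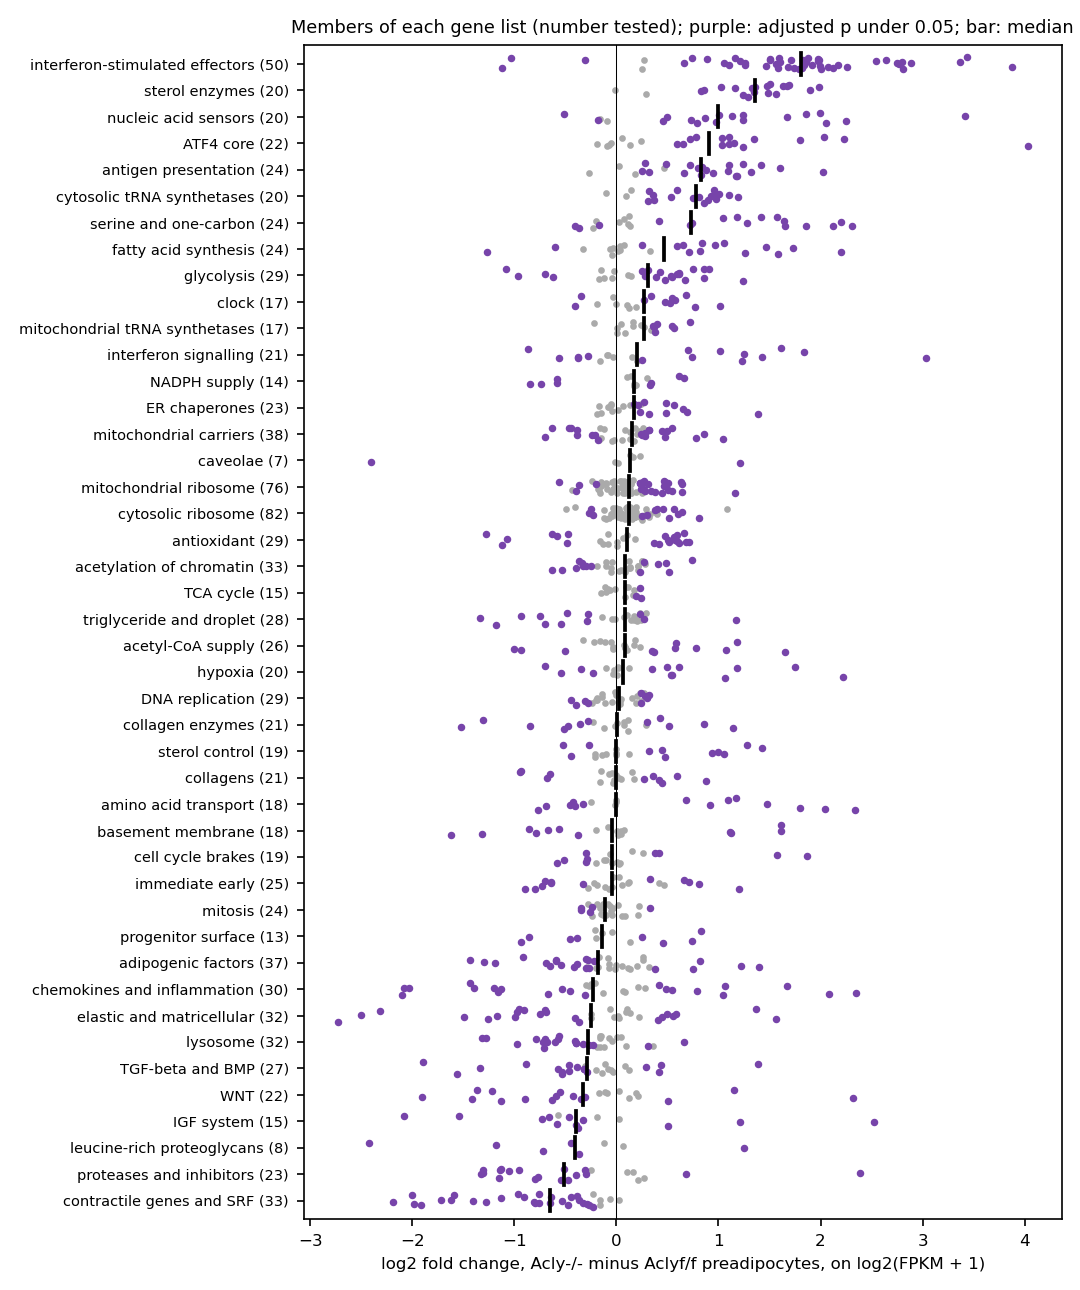
Log2 fold change of Acly-/- minus Aclyf/f preadipocytes on the log2(FPKM + 1) scale (horizontal axis) for the tested members of 44 gene lists (vertical axis, number tested in brackets); each point is a gene, purple where its adjusted p was under 0.05, and black bars are medians. Interferon-stimulated effectors (median 1.81) and sterol enzymes (1.35) lie at the top, contractile genes (−0.66) at the bottom.

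The promoters of several genes that rose or fell hold short motifs bound by these factors. The 250 bases before the start of 6 genes are shown because they carry the motifs at issue, 2 genes for each motif, picked after their values were seen. Sequences are from RefSeq on GRCm38.p6, read 5′ to 3′ on the gene's strand, with the motif in capitals. Isg15 (chr4:156200819-156201068, minus strand) and Oas3 (chr5:120777660-120777909, minus strand) hold the interferon response element searched as GAAA, any 2 bases and GAAA. Isg15 has 3 overlapping matches, the first 78 bases before the start, and Oas3 has 1, at 75 bases.
Isg15: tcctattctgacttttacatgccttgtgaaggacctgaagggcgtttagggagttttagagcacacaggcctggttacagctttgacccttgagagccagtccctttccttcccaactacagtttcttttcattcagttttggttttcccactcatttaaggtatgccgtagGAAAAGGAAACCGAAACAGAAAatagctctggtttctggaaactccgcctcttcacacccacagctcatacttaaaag
Oas3: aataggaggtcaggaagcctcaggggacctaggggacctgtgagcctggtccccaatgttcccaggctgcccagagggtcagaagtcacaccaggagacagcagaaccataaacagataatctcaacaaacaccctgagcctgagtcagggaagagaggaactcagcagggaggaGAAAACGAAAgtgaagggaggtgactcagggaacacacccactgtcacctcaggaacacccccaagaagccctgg

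Asns (chr6:7693210-7693459, minus strand) and Chac1 (chr2:119350992-119351241, plus strand) hold the composite element bound by ATF4 with C/EBP partners, searched as TGATGNAA, 23 bases before the start in Asns and 193 bases before it, on the opposite strand, in Chac1.
Asns: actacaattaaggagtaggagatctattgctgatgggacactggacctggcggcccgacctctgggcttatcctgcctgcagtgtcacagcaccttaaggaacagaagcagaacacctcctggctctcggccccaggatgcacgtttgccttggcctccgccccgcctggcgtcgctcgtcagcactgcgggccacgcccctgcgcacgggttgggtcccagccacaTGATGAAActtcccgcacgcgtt
Chac1: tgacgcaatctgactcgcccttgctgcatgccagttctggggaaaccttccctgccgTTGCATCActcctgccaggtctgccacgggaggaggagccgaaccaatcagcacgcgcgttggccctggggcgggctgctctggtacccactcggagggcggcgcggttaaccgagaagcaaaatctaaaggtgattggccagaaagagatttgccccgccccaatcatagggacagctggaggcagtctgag

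Myl9 (chr2:156775214-156775463, plus strand) and Srf (chr17:46556163-46556412, minus strand) hold the CArG box bound by SRF, 161 bases before the start in Myl9 and 82 and 62 bases before it in Srf.
Myl9: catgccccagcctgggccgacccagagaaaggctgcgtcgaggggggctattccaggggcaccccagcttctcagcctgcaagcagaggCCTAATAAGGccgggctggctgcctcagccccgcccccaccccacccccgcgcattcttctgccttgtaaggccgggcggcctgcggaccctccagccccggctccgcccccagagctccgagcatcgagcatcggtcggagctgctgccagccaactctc
Srf: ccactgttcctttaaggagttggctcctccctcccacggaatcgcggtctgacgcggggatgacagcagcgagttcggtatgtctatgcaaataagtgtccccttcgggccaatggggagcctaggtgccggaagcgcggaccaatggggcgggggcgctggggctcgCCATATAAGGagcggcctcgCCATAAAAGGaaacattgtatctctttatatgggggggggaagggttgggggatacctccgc

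Over all 32851 RefSeq promoter windows of 300 bases, both strands searched, the interferon element was found in 3.44%, TGATGNAA in 3.97% and a CArG box in 1.63%. Among genes tested here that have a window (8957), the shares were 3.81%, 2.7% and 1.57%. Of the interferon-stimulated effectors that rose and have a window, 19 of 35 (54.3%) held the interferon element, as did 5 of 16 antigen presentation genes (31.2%). It was also found in 1 of 2 effectors that fell, Ifitm2. Of ATF4 genes that rose, 6 of 13 (46.2%) held TGATGNAA, as did 5 of 11 cytosolic tRNA synthetases (45.5%). Of contractile genes that fell, 7 of 24 (29.2%) held a CArG box. A sterol element searched as TCACNCCAC was found in 1.24% of windows and in 1 of 13 sterol enzymes that rose, Hmgcs1, in 0 of 4 sterol control genes and in 0 of 10 fatty acid synthesis genes that rose. These matches are descriptions of the sequence, not bound sites, and their part in the changes was not tested.

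Acly itself (chr11:100476352-100528000, mm10, which spans the whole gene) read 89.5, 86.2 and 84.9 FPKM in Aclyf/f and 11.9, 12.5 and 11.9 FPKM in Acly-/- preadipocytes. The groups did not overlap. The level was 7.18-fold lower without the gene (log2 fold change −2.75 ± 0.08, SE, limma adjusted p = 1.6e-10). The fragments that remained were not placed by exon in the deposited values, so whether they lie outside the deleted part cannot be told apart from transcripts of cells that kept the gene.

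Among routes to and from acetyl-CoA the alternative enzyme rose. Acss2 read 4.19, 4.50 and 4.83 FPKM in Aclyf/f and 14.2, 17.3 and 17.7 FPKM in Acly-/- cells, with no overlap, 3.64-fold higher (limma adjusted p = 4.3e-08). Slc25a1, the carrier that exports citrate from mitochondria, rose 1.76-fold, from 39.6 to 46.6 FPKM in Aclyf/f to 61.3 to 93.9 FPKM in Acly-/- libraries. Of the kinases that switch off pyruvate dehydrogenase, Pdk1 rose 2.35-fold and Pdk4 2.22-fold. Pdk2 (log2 fold change −0.33, limma adjusted p = 0.059) and Pdk3 (−0.16, limma adjusted p = 0.14) did not pass the test. Acss3, a mitochondrial acyl-CoA synthetase, fell from 1.09 to 1.24 FPKM to 0.0666 to 0.183 FPKM, and Aspa, which frees acetate from N-acetylaspartate, fell 2.52-fold. Of the 26 members of this list tested, 8 rose (30.8%) and 3 fell (11.5%). The median log2 fold change of 0.08 turned to −0.01 when all libraries were scaled to the same FPKM sum.

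The enzymes of cholesterol synthesis rose nearly as a whole. Of 20 tested, 18 rose (90%, against 19.7% of all genes), none fell, and the median log2 fold change was 1.35. Fdps, which makes farnesyl diphosphate, read 69.8, 61.5 and 56.4 FPKM in Aclyf/f and 215, 231 and 259 FPKM in Acly-/- cells, 3.76-fold higher (limma adjusted p = 1e-08). The groups did not overlap. Mvd, which makes isopentenyl diphosphate, rose 3.54-fold, and Idi1, which isomerises it, rose 3.30-fold. Hmgcs1, the synthase at the entry to the pathway, rose 2.25-fold, from 39.5 to 51.2 FPKM to 103 to 107 FPKM. The exceptions were Ebp, at 24.4 to 25.4 FPKM against 22.9 to 27.5 FPKM, and Hsd17b7, whose adjusted p was 0.058 in limma.

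Control genes of the sterol pathway moved selectively, with 8 of 19 higher and 3 lower. Insig1, which holds SREBPs in the endoplasmic reticulum and is itself induced by them, read 35.7, 33.4 and 34.9 FPKM in Aclyf/f and 85.0, 85.6 and 86.3 FPKM in Acly-/- cells, 2.47-fold higher (limma adjusted p = 1.5e-08). Srebf2 rose 2.10-fold and Srebf1 2.05-fold, while Insig2 fell 1.45-fold and the cholesterol exporter Abca1 fell 1.45-fold. Soat2, which esterifies cholesterol, was at 0.0613 to 0.275 FPKM in Aclyf/f and 1.23 to 2.83 FPKM in Acly-/- libraries.

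Fatty acid synthesis and desaturation followed, with 13 of 24 genes higher (54.2%), 2 lower and a median of 0.46. Scd2, a stearoyl-CoA desaturase, read 126, 127 and 124 FPKM in Aclyf/f and 611, 585 and 546 FPKM in Acly-/- cells, 4.63-fold higher (limma adjusted p = 2e-09). Fasn, fatty acid synthase, read 22.1, 22.6 and 21.2 against 71.5, 70.0 and 84.2 FPKM, 3.43-fold higher. Scd1 rose 3.08-fold, the delta-6 desaturase gene Fads2 2.80-fold and Acaca, acetyl-CoA carboxylase, 2.03-fold. Hacd1, a dehydratase of chain elongation, fell 2.53-fold. The NADPH list divided evenly, 4 of 14 higher and 4 lower (28.6% each): Pgd of the pentose phosphate pathway rose 1.54-fold and cytosolic Idh1 fell 1.51-fold.

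**Figure D2:**
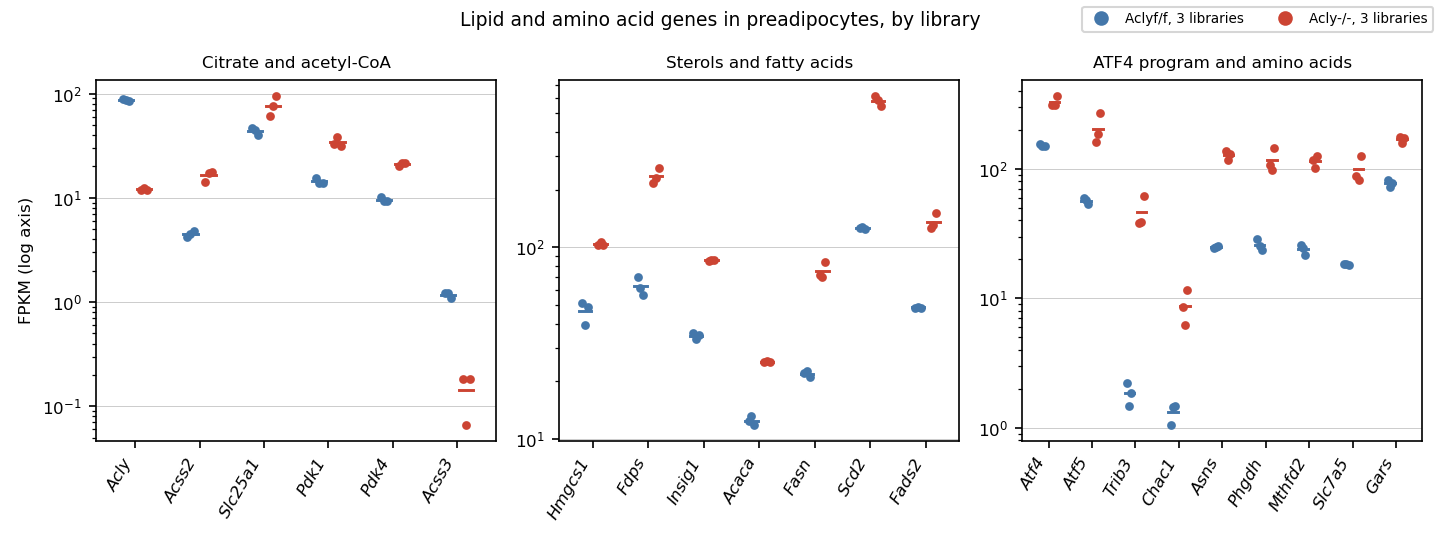
FPKM on a log axis (vertical) of genes of acetyl-CoA supply, lipid synthesis and the ATF4 program (horizontal) in Aclyf/f (blue) and Acly-/- (red) preadipocytes; points are libraries, 3 a group, and bars are means. Acly and Acss3 are the genes lower in Acly-/- libraries, and in no gene plotted do the groups overlap.

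Stress and amino acid genes under ATF4 rose. Of 22 tested, 15 rose (68.2%) and none fell, with a median of 0.91. Trib3 (chr2:152337425-152344060), a pseudokinase induced by ATF4, read 2.22, 1.47 and 1.85 FPKM in Aclyf/f and 38.3, 39.2 and 61.3 FPKM in Acly-/- cells, 25.1-fold higher (limma adjusted p = 2e-09) and the largest log2 rise among all genes whose groups did not overlap. Atf4 read 156, 150 and 149 against 311, 313 and 363 FPKM, 2.17-fold higher. Atf5 rose 3.62-fold, Chac1, which breaks down glutathione, 6.59-fold, Cth, the last enzyme of cysteine synthesis, 5.89-fold, Ddit3 2.31-fold and the stress hormone Gdf15 2.69-fold. Of the 4 kinases that can start this response, Eif2ak1, Eif2ak3 and Eif2ak4 did not pass the test, at 22.9 to 26.1, 10.0 to 11.4 and 8.02 to 10.4 FPKM over the 6 libraries. The RNA-sensing kinase Eif2ak2 rose 2.40-fold. Fgf21, a hormone often raised with ATF4, stayed under 0.157 FPKM.

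Amino acid synthesis, import and charging genes rose with them. Asns, asparagine synthetase, read 24.4, 24.7 and 25.5 FPKM in Aclyf/f and 137, 117 and 130 FPKM in Acly-/- cells, 5.14-fold higher (limma adjusted p = 6.9e-10). Mthfd2 of mitochondrial one-carbon metabolism rose 4.77-fold and Phgdh, the entry to serine synthesis, 4.53-fold, whereas cytosolic Shmt1 fell 1.35-fold, a call lost without Aclyf/f library 1. In this list 14 of 24 rose and 3 fell, with a median of 0.73. The leucine transporter gene Slc7a5 rose 5.39-fold and Slc1a4, a serine and alanine carrier, 4.58-fold. Yet over all 18 transporters tested 8 rose (44.4%) and 6 fell (33.3%). Cytosolic tRNA synthetases rose in 17 of 20 cases (85%), none fell, and the median was 0.78. Cars rose 2.36-fold and Gars 2.17-fold, while the exceptions Hars, Rars and Qars lay at 47.2 to 49.5, 50.2 to 56.8 and 33.3 to 35.7 FPKM in Aclyf/f and 49.7 to 56.2, 48.6 to 64.0 and 30.2 to 35.5 FPKM in Acly-/- libraries. Of their mitochondrial counterparts 7 of 17 rose (41.2%) and none fell, and 5 rose without Acly-/- library 3.

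Chaperones of the endoplasmic reticulum moved less. Of 23, 11 rose and none fell, with a median of 0.17, but 7 rose without Aclyf/f library 2, without Acly-/- library 1 or with libraries scaled to the same FPKM sum. Herpud1, of the degradation pathway, rose 2.71-fold and the chaperone gene Hspa5 1.62-fold. Hsp90b1 and Calr did not pass the test, at 452 to 536 and 444 to 542 FPKM over the 6 libraries. Among antioxidant genes 13 of 29 rose (44.8%) and 7 fell (24.1%). Srxn1, which repairs peroxiredoxins, rose 1.66-fold and Nqo1 1.62-fold, while Gstt1, a glutathione transferase, fell 2.45-fold and extracellular Sod3 2.33-fold. Their regulator Nfe2l2 was at 67.6 to 70.5 against 70.7 to 80.1 FPKM and did not pass the test.

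Antiviral genes rose from the sensors to the effectors, and the ligand was detected in the Acly-/- libraries. Ifnb1 (chr4:88522025-88522794), interferon beta, was listed at the floor of 0.01 FPKM in all 3 Aclyf/f libraries and at 2.08, 1.08 and 1.08 FPKM in the Acly-/- libraries, which corresponds to about 18, 6 and 12 fragments at the estimated depths. It passed the filter on low values only through these 3 libraries, so no test is given, nor a fold against a group at the floor. Ifna4 read 0.752 and 0.818 FPKM in Acly-/- libraries 1 and 2 and the floor in the other 4 and was too low to be tested. Ifng stayed under 0.275 FPKM and Ifnk was at the floor throughout.

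Sensors of RNA and DNA rose in 16 of 20 cases (80%), with a median of 0.99. Zbp1, a sensor of Z-form nucleic acids, read 10.5, 6.72 and 7.54 FPKM in Aclyf/f and 68.1, 120 and 108 FPKM in Acly-/- cells, 12-fold higher (limma adjusted p = 5.1e-08). The cytosolic RNA sensors Ddx58 (RIG-I), Ifih1 (MDA5) and Dhx58 (LGP2) rose 3.71-fold, 3.36-fold and 4.97-fold, and Tlr3, the endosomal RNA receptor, 4.93-fold. Mb21d1 (cGAS), the DNA sensor, rose 1.44-fold, from 5.40 to 6.01 FPKM to 7.14 to 8.81 FPKM. Its adaptor Tmem173 (STING) fell 1.46-fold. Mavs, the adaptor of the RNA sensors, was 1.15-fold lower, with an adjusted p of 0.035 in limma that missed the threshold without library 2 or 3 of either preadipocyte group, and also without Aclyf/f adipocyte library 2 or 3.

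Receptors and kinases of the response went different ways. Jak2 was called higher, 1.20-fold, at 34.6 to 37.8 against 38.0 to 49.9 FPKM (limma adjusted p = 0.046). This call lies close to the threshold, and whether it holds with a library left out was not tested. Ifnar1 fell 1.22-fold, and Ifnar2, at 57.3 to 68.3 against 51.6 to 58.7 FPKM, Jak1 and Tyk2 did not pass the test. Irf7 (chr7:141263183-141266424), which amplifies interferon production, read 24, 27.4 and 23.9 FPKM in Aclyf/f and 164, 234 and 251 FPKM in Acly-/- cells, 8.61-fold higher (limma adjusted p = 1.9e-08). Stat2 rose 2.74-fold and Irf9 1.69-fold, and the feedback inhibitor Socs1 3.31-fold. Irf3, which is regulated mainly by phosphorylation, was at 10.1 to 12.5 against 11.6 to 15.5 FPKM, and its adjusted p was 0.22. Stat3 fell 1.85-fold. Over the signalling list 10 of 21 rose (47.6%) and 5 fell (23.8%), with Ifnb1, for which no test is given, counted among the rises.

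Of 50 interferon-stimulated effectors tested, 45 rose (90%) and 3 fell, with a median of 1.81. Ifi44 read 3.78, 3.50 and 3.26 FPKM in Aclyf/f and 48.1, 80.5 and 72.2 FPKM in Acly-/- cells, 19.1-fold higher (limma adjusted p = 2.5e-09). Mx1, a GTPase gene, rose 15.4-fold and Rsad2 (viperin) 9.24-fold. Oas3, which makes the activator of RNase L, rose 32.2-fold, from 0.368 to 0.597 FPKM to 8.58 to 19.9 FPKM. Oas3 is counted among the 45, but every Aclyf/f preadipocyte library lay under the 1 FPKM of the filter, so its fold rests on low control values. Isg15, the ubiquitin-like modifier, rose 4.04-fold and Uba7, the enzyme that activates it, 7.90-fold. Those that fell were Ifi27l2a (2.19-fold), Ifitm1 (3.28-fold) and Ifitm2 (1.24-fold, a call lost without Aclyf/f library 2 or Acly-/- library 2). Many members of these families and of MHC class I have near-identical copies, among which fragments can be divided, so the split between copies is uncertain.

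MHC class I and its peptide supply rose in 20 of 24 cases (83.3%), none fell, and the median was 0.83. Without Acly-/- library 3, 16 rose. Psmb10, a catalytic subunit of the immunoproteasome, read 19.3, 18.2 and 17.3 FPKM in Aclyf/f and 54.6, 84.0 and 101 FPKM in Acly-/- cells, 4.37-fold higher (limma adjusted p = 2e-06). The peptide transporter gene Tap1 rose 3.13-fold, H2-K1 1.87-fold and Nlrc5, the activator of class I genes, 1.91-fold. Chemokines and inflammatory genes went both ways, 9 of 30 higher (30%) and 12 lower (40%). Cxcl10 read 23.3, 17.0 and 17.8 against 101, 109 and 96.1 FPKM, 5.27-fold higher, and Cxcl9 rose 5.81-fold and Ccl5 3.41-fold. Cxcl12, a stromal chemokine, read 1632, 1656 and 1652 FPKM in Aclyf/f and 385, 430 and 350 FPKM in Acly-/- cells, 4.24-fold lower (limma adjusted p = 5.3e-08). The adhesion molecule gene Vcam1 fell 4.33-fold and complement C3 7.21-fold. Ccl2 did not pass the test, at 224 to 237 against 236 to 249 FPKM.

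**Figure D3:**
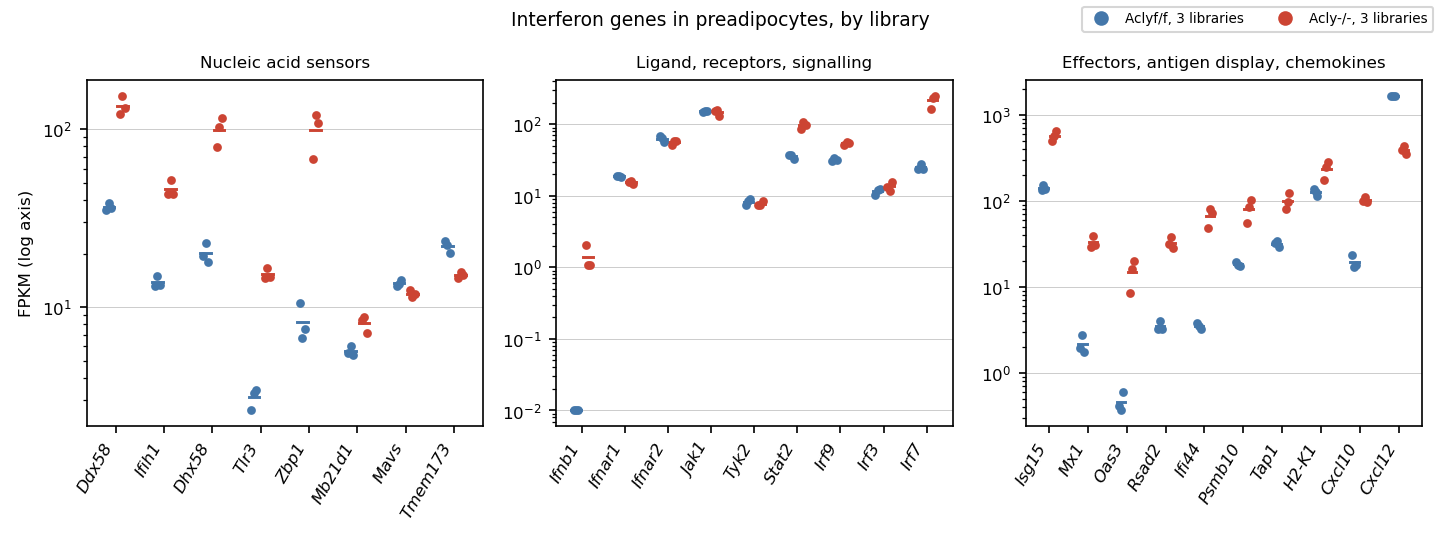
FPKM on a log axis (vertical) of nucleic acid sensors, interferon signalling genes, effectors, antigen presentation genes and chemokines (horizontal) in Aclyf/f (blue) and Acly-/- (red) preadipocytes; points are libraries, 3 a group, bars are means, and Ifnb1 sits on the floor of 0.01 FPKM in Aclyf/f. Ifnar2, Jak1, Tyk2 and Irf3 overlap between the groups, and Irf7 goes from 24 to 27.4 FPKM up to 164 to 251 FPKM.

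The contractile genes fell. Of 33 tested, 27 fell (81.8%, against 22.4% of all genes), none rose, and the median was −0.66. Acta2, smooth muscle actin, read 406, 404 and 392 FPKM in Aclyf/f and 120, 135 and 133 FPKM in Acly-/- cells, 3.10-fold lower (limma adjusted p = 3.2e-06). Myl9, a myosin light chain, read 152, 141 and 132 against 25.4, 34.2 and 31.4 FPKM, 4.67-fold lower. Tagln fell 3.87-fold, Cnn1 (calponin) 4.73-fold and Vcl (vinculin) 2.44-fold. Srf itself fell 2.00-fold, from 39.5 to 44.9 FPKM to 19.5 to 23.8 FPKM. Its partner Mkl1 did not pass the test: it was at 18.4 to 19.6 against 16.3 to 18.7 FPKM, with an adjusted p of 0.14 in limma, or 0.026 with libraries scaled to the same FPKM sum. Smooth muscle markers summed to 394 to 409 FPKM in Aclyf/f and 122 to 136 FPKM in Acly-/- libraries, nearly all of it Acta2, with Cspg4 under 0.034 FPKM.

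Among matrix genes the proteases moved most evenly. Of 23 matrix proteases and inhibitors tested, 16 fell (69.6%) and 2 rose, with a median of −0.52. Mmp2 (gelatinase A) read 69.3, 73.4 and 69.7 FPKM in Aclyf/f and 28.2, 25.7 and 29.9 FPKM in Acly-/- cells, 2.53-fold lower (limma adjusted p = 1.1e-06). Its membrane-bound activator Mmp14 fell 2.19-fold, Mmp11 2.49-fold and Adamts5, which cleaves aggrecan and versican, 2.93-fold. The inhibitor Timp3 went the other way, from 12.5, 10.4 and 12 FPKM to 60.3, 77.6 and 58.1 FPKM, 5.62-fold higher.

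Collagen chains were divided, 6 of 21 higher and 4 lower, shares near the background. Col3a1 was at 701 to 760 against 637 to 767 FPKM with an adjusted p of 0.98. Col1a1, at 710 to 883 against 911 to 1353 FPKM, had an adjusted p of 0.047, which missed the threshold without library 2 or 3 of either preadipocyte group, and also without Aclyf/f adipocyte library 3 or any 1 Acly-/- adipocyte library. Of elastic and matricellular proteins 15 of 32 fell (46.9%) and 7 rose, with a median of −0.25. Nov (CCN3) read 57.8, 48.7 and 53.9 against 6.86, 9.23 and 5.85 FPKM, 7.31-fold lower, Smoc1 fell 11.4-fold and Fbln7 9.05-fold. Spp1 (osteopontin) rose 2.98-fold and Wisp2 2.62-fold. Dcn (decorin), a small leucine-rich proteoglycan that binds collagen and TGF-beta, read 72.0, 90.2 and 95.7 against 15.2, 18.3 and 12.4 FPKM, 5.62-fold lower, while Omd (osteomodulin) rose 2.39-fold. In that list 5 of 8 tested fell, or 3 without Aclyf/f library 3 or Acly-/- library 3.

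Basement membrane and caveolar genes held large single changes. Lama4, a laminin chain, fell from 2.84 to 3.71 FPKM to 0.293 to 0.423 FPKM, and Gpc1, a heparan sulphate proteoglycan, rose 3.18-fold. Of the caveolae coat, Cav1 (caveolin-1) rose from 82.3, 75.3 and 91.3 FPKM to 193, 194 and 190 FPKM, while Sdpr (cavin-2) fell from 12.6, 11 and 12.6 FPKM to 1.33, 1.68 and 1.39 FPKM, 8.24-fold lower. The other 5 coat genes tested did not pass the test, so the coat list held 1 rise and 1 fall of 7. Within the lysosome 17 of 32 genes fell (53.1%) and 2 rose, with a median of −0.27, and 21 fell without Acly-/- library 3. The cathepsins Ctsf and Ctsh fell 2.72-fold and 2.55-fold, Ctsa 1.98-fold and the regulator Mitf 1.82-fold. Tfeb, the main activator of lysosomal genes, was at 2.61 to 2.96 against 1.93 to 3.72 FPKM.

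Signals that act on preadipocytes shifted, ligands and secreted inhibitors among them. Wnt10b (chr15:98771752-98778150), a ligand known to hold preadipocytes undifferentiated, was at 0.0654, 0.117 and 0.229 FPKM in Aclyf/f and 3.81, 4.64 and 5.69 FPKM in Acly-/- cells, with no overlap. It too passed the filter only through the Acly-/- libraries, so no test is given, and the control values rest on few fragments. The secreted Wnt inhibitors fell: Sfrp4 4.65-fold, Sfrp2 2.97-fold and Dkk2 2.81-fold. Axin2, the usual feedback target, was under 0.129 FPKM in all 6 libraries and was not tested. Of 22 Wnt genes tested 12 fell (54.5%) and 3 rose (13.6%). The 3 counted as rises were Wnt10b, for which no test is given, Wnt2 and the receptor gene Fzd1.

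In the TGF-beta and BMP list 13 of 27 fell (48.1%) and 4 rose, with a median of −0.29. Inhba, the activin A subunit, rose 2.70-fold, from 11.9 to 17.1 FPKM to 34.7 to 44.3 FPKM, and its antagonist Fst (follistatin) fell from 2.65 to 3.32 FPKM to 0.0547 to 0.631 FPKM. The BMP antagonist Grem1 fell 5.88-fold. Of the IGF system 9 of 15 fell and 3 rose. The binding proteins went separate ways: Igfbp4 read 2.70, 2.02 and 1.89 against 16.9, 12.9 and 23.7 FPKM, 8.11-fold higher, and Igfbp6 rose 2.36-fold, while Igfbp5 read 74.2, 82.6 and 78.9 against 19.4, 17.8 and 16.3 FPKM, 4.41-fold lower. The RNA-binding protein gene Igf2bp2 fell 3.06-fold.

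Adipogenic transcription factors leaned lower, with 16 of 37 down (43.2%), 5 up and a median of −0.18. Pparg, the master regulator of the fat cell program, read 52.7, 45.2 and 44.0 FPKM in Aclyf/f and 36.4, 33.9 and 35.3 FPKM in Acly-/- cells, 1.34-fold lower (limma adjusted p = 0.0014). Cebpa, its partner, read 34.1, 29.3 and 27.5 against 13.0, 10.4 and 15.0 FPKM, 2.36-fold lower, and the early factor Cebpd fell 3.29-fold. Cebpb overlapped between the groups, at 39.6 to 57.8 against 30.9 to 50.2 FPKM. Klf9 fell 2.58-fold, while Klf2, which represses Pparg, rose 2.71-fold and Sox9 3.33-fold. Of progenitor surface genes Pdgfra fell 1.82-fold, from 123 to 140 FPKM to 64.0 to 77.1 FPKM, and Ly6a (Sca-1) rose 1.79-fold, from 413 to 533 FPKM to 655 to 979 FPKM.

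Genes of lipid uptake and storage, which serve the later fat cell, fell in 9 of 28 cases (32.1%). Fabp4, a fatty acid binding protein and early Pparg target, read 503, 500 and 517 FPKM in Aclyf/f and 224, 191 and 187 FPKM in Acly-/- cells, 2.52-fold lower (limma adjusted p = 1.9e-07). Angptl4, which blocks lipoprotein lipase, fell 2.37-fold, Fabp5 1.93-fold and Gpam, the first enzyme of glycerolipid synthesis, 1.71-fold. Dgat2, which makes triglycerides, rose 2.78-fold from 2.30 to 2.65 FPKM to 5.90 to 7.73 FPKM. The count of rises in this list was 3, and it ranged from 1 without Aclyf/f library 3 to 5 without Acly-/- library 1 or 2. The median was 0.09.

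**Figure D4:**
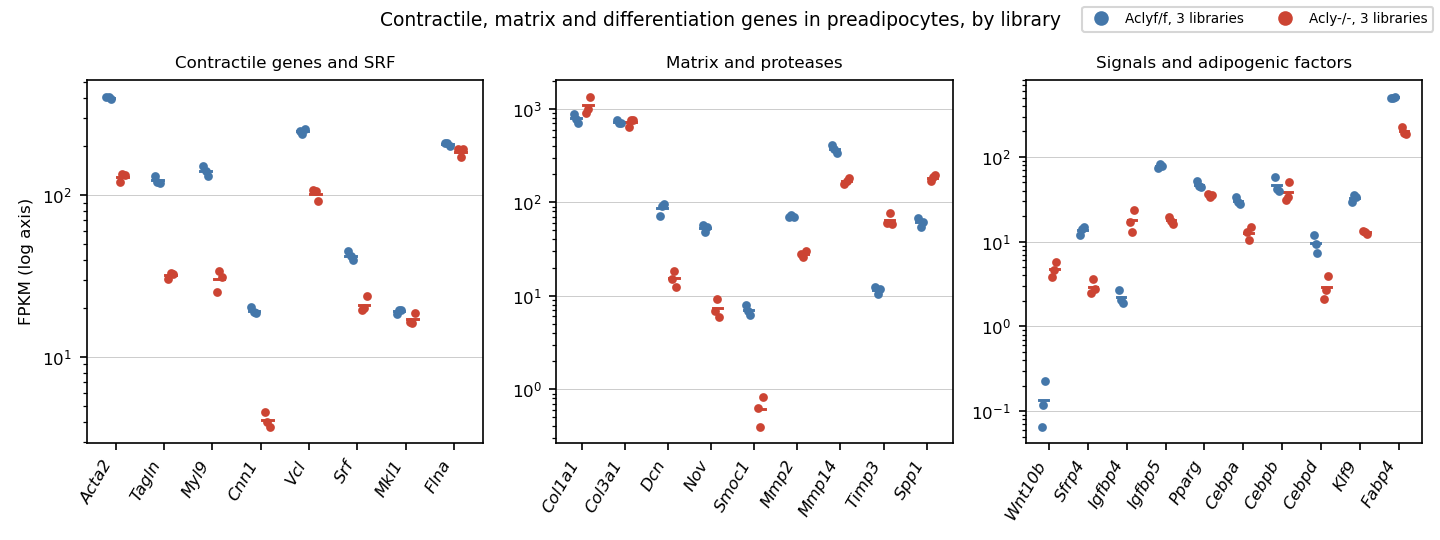
FPKM on a log axis (vertical) of contractile, matrix, signalling and adipogenic genes (horizontal) in Aclyf/f (blue) and Acly-/- (red) preadipocytes; points are libraries, 3 a group, and bars are means. Acta2 drops from 392 to 406 FPKM to 120 to 135 FPKM, Timp3, Spp1, Igfbp4 and Wnt10b lie higher in Acly-/- libraries, and Col3a1, Mkl1 and Cebpb overlap.

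Glycolytic genes rose. Of 29 genes of glucose uptake, glycolysis and lactate export, 18 rose (62.1%) and 4 fell, with a median of 0.31. Pfkl, the liver form of phosphofructokinase, read 53.8, 49.4 and 47.1 against 105, 114 and 144 FPKM, 2.41-fold higher (limma adjusted p = 9.6e-07). Ldha, lactate dehydrogenase, rose 1.82-fold from 406 to 442 FPKM to 741 to 824 FPKM, Eno1 1.82-fold and the glucose carrier gene Slc2a1 1.47-fold, while Eno2 fell 2.84-fold. Hif1a, the oxygen-regulated factor that can drive such genes, fell 1.64-fold, from 58.1 to 67.6 FPKM to 33.9 to 41.2 FPKM, and the stress gene Ndrg1 rose 5.70-fold.

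The clock list held 9 rises of 17 (52.9%) with a median of 0.27. Ciart, a repressor of the core clock, rose 2.46-fold, Per3 1.83-fold and Arntl (BMAL1) 1.55-fold, and Nfil3 fell 1.29-fold. Falls in that list numbered 2, or 1 without Aclyf/f library 1 or 3 or Acly-/- library 1 or 3. The hour at which cultures were taken is not given in the sources used here.

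Few proliferation genes passed the test. Of 24 genes of mitosis 4 fell (16.7%) and 1 rose (4.17%). Without Aclyf/f library 2 or 3 or Acly-/- library 3, 1 to 2 fell. Mki67 was called lower, 1.26-fold (limma adjusted p = 0.036), although the groups overlapped at 50.1 to 58.1 against 34.6 to 50.6 FPKM, and the call was lost without Aclyf/f library 2 or 3 or Acly-/- library 3. Ccnd1 (cyclin D1) rose 4.24-fold, from 3.51 to 4.93 FPKM to 16.8 to 20.0 FPKM, and the inhibitor Cdkn2b 3.10-fold. Trp53 and its target Cdkn1a did not pass the test, at 73.3 to 88.1 and 129 to 163 FPKM over the 6 libraries, in cells that were immortalised with SV40. Of 33 enzymes and readers of histone acetylation 6 rose and 8 fell, shares near the background: Brd2, an acetyl-lysine reader, rose 1.68-fold, the deacetylase gene Hdac2 fell 1.45-fold, and the acetyltransferase genes Ep300 and Crebbp did not pass the test. The falls numbered 5 without Aclyf/f library 3, and the rises 3 with libraries scaled to the same FPKM sum.

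A few genes were present in one genotype and near the floor in the other. With under 0.3 FPKM in every library of 1 group and at least 1 FPKM in every library of the other, 13 genes were on in Acly-/- cells and 7 were off. Car6, a secreted carbonic anhydrase, read 0.112, 0.201 and 0.01 FPKM in Aclyf/f and 6.17, 4.89 and 6.40 FPKM in Acly-/- cells, the highest level among the 13, which also held Wnt10b, Soat2 and Ifnb1. The genes that were off included Acss3. Aldh1a2, which makes retinoic acid, stayed above that limit but fell 7.36-fold, from 19.7 to 20.4 FPKM to 2.51 to 3.12 FPKM.

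The response before differentiation was then set beside that of day 4 adipocytes, which came from other libraries of the same genotypes. The response differed between stages in 50.2% of genes tested (5908 of 11777, limma interaction contrast, adjusted p under 0.05). Of the 4966 genes changed in preadipocytes, 1733 (34.9%) changed the same way in adipocytes, which is 26.9% of the 6452 genes changed there, and 1187 changed the opposite way, all of them past the test of the difference. Of the 350 strong rises 193 were also higher in adipocytes, and of the 252 strong falls 89 were also lower. The 6452 genes changed in adipocytes, of 11777 tested, were not split by direction. Counts of list members higher or lower there therefore have no background share by direction.

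Lipid synthesis genes changed in opposite directions. Fasn was 3.43-fold higher in Acly-/- preadipocytes, and the interaction contrast was 4.45 on the log2 scale (limma adjusted p = 1.5e-09), since its log2 fold change was 1.73 before and −2.72 after differentiation. Scd2 went from 2.2 to −0.95. All 20 sterol enzymes passed the test of the difference, with 18 higher before and 13 lower after differentiation. Of 29 glycolytic genes 27 did (93.1%), with 18 higher and 4 lower before it and 1 higher and 24 lower after it. Trib3, with a log2 fold change of 4.03 in preadipocytes, had −0.40 in adipocytes, where both genotypes were above 100 FPKM (137 and 105).

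Contractile and protease genes also differed between stages. Of 33 contractile genes 31 (93.9%) differed between stages, with 27 lower before and, after differentiation, 15 higher and 5 lower. Of 23 proteases and inhibitors 22 did (95.7%), with 16 lower and 2 higher before and 18 higher and 2 lower after. Mmp2 went from a log2 fold change of −1.31 to 1.76, Acta2 from −1.62 to 1.36 and the transcription factor gene Sox4 from −1.45 to 2.09. Cxcl12 went from −2.09 to 1.18. Mitotic genes behaved in the opposite order, with 4 of 24 lower in preadipocytes and 24 of 24 lower in adipocytes. Of these 24, 23 (95.8%) passed the test of the difference.

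Interferon-stimulated effectors rose at both stages. Before and after differentiation 45 of 50 were higher, with medians of 1.81 and 1.36. The response differed between stages in 30 of the 50 (60%), a share near the 50.2% of all genes tested. Ifi44 had 3.88 in preadipocytes and 3.47 in adipocytes, a difference of 0.41 that did not pass the test (adjusted p = 0.16, limma). Irf7 was the larger before differentiation, 3.04 against 2.15 (limma adjusted p of the difference = 0.0074). Among antigen presentation genes 20 of 24 were higher in preadipocytes and 4 higher and 5 lower in adipocytes. The difference passed the test in 17 of them (70.8%), and Psmb10 had 2.03 against 0.06. In adipocytes the mean of Ifnb1 was 0.157 FPKM without Acly, and it was listed at 0.01 FPKM with Acly intact.

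**Figure D5:**
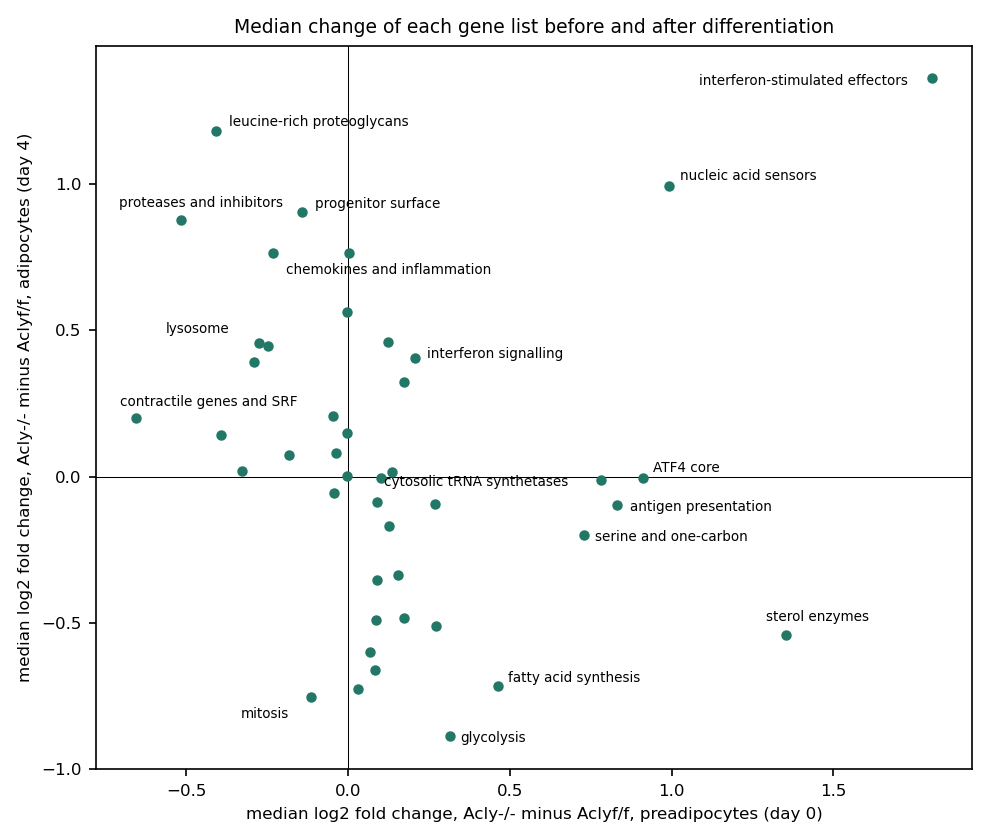
Median log2 fold change of Acly-/- minus Aclyf/f over the tested members of each of 44 gene lists, in preadipocytes on day 0 (horizontal axis) and adipocytes on day 4 (vertical axis), on the log2(FPKM + 1) scale; each point is a list. Interferon-stimulated effectors lie high on both axes (1.81 and 1.36), sterol enzymes go from 1.35 to −0.54, glycolysis from 0.31 to −0.89 and proteases from −0.52 to 0.88.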

How the data were processed

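RNA from 12 libraries was sequenced after Trizol isolation and TruSeq preparation, per the labels' protocols. The deposited values are FPKM, per the file headers, which the authors made with tools that the submitters' processing notes name as bcl2fastq, Bowtie2 2.2.6 and Cufflinks 2.2.1 on mm10. No counts are used here, the annotation and strand handling were not given in the sources used here, and an exact 0.01 is the table's floor. Cufflinks assigns fragments to transcripts by an estimate, so close paralogs can trade fragments.

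Of 24341 genes, 11777 were tested, those that reached 1 FPKM in 3 or more of the 12 libraries. The test was limma 3.58.1 (R 4.3.3) on log2(FPKM + 1), with a mean for each of 4 groups, all 12 libraries, a mean-variance trend and Benjamini-Hochberg adjustment over all genes tested. A call is an adjusted p under 0.05. Log2 fold changes on this scale understate changes of low genes, and folds are ratios of mean FPKM. The fit was run on simulated data with independent noise for each gene and few genes changed. The simulation held no effect shared within a library, so it cannot show how the fit behaves with such effects. Starts in the table are counted from 0 and were raised by 1. Figures and promoter searches used Python 3.11.15, pandas 2.3.3, numpy 2.4.6 and matplotlib 3.10.9.

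The groups and the 44 gene lists were chosen with earlier results of these data known. Of the listed symbols Gk, Rnf213 and C1s are not analysed here. Some genes that the rule names are not reported here. Genes named are Acly, the 12 largest rises and falls without overlap, up to 4 called members at each end of a list, key regulators, all members of short lists, the 10 largest stage differences in each direction and genes present in 1 genotype only. Outside this rule, Isg15, H2-K1, Jak1, Tyk2, Ifng, Ifnk, Ifna4, Hmgcs1, Ebp, Hsd17b7, Hars, Rars, Qars, Hsp90b1, Calr, Vcl, Mmp14, Jak2, Pdk2, Pdk3, Flna (plotted only), markers of other cell types and the promoters were chosen after their values were seen. Alternatives were a replicate block, other pseudocounts, filters, scalings and variance models, and leaving out each library.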

Additional observations from a re-analysis of the deposited data

Results flagged for a closer look

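The interaction contrast, log2 fold change in preadipocytes minus that in adipocytes, was read in the 12 largest rises and 12 largest falls without overlap, Acly among them. It called 20 of these different between stages (limma, adjusted p under 0.05), against 50.2% of all genes tested. They were picked for large changes in preadipocytes, so the choice itself favours a larger response there than in adipocytes. Acly differed by 3.08, with −2.75 before and −5.82 after differentiation; its Acly-/- level was close at both stages, 12.1 and 12.4 FPKM, and its control level was 86.9 and 754 FPKM. Trib3 differed by 4.43.

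Of these 20, 8 are interferon-stimulated genes that rose more in preadipocytes. Whole interferon lists went different ways between stages. Medians before and after differentiation were 1.81 and 1.36 for effectors and 0.83 and −0.10 for antigen presentation. The sensors' medians were 0.99 at both stages, and the signalling list had 0.21 before and 0.41 after differentiation. Uba7 differed by 2.27, Mx1 by 1.36, Oas3 by 1.26, Gm12250 by 1.20, Zbp1 by 1.16, Cmpk2 by 1.00, Irf7 by 0.88 and Rsad2 by 0.66. Oas3 lay under the 1 FPKM of the filter in every Aclyf/f preadipocyte library, so its value rests on low control levels. Among protein-coding genes that fell, the difference was −3.06 in Nov, −2.56 in Pamr1, −2.45 in Fbln7, −2.38 in Aldh1a2, −1.55 in Dcn, −1.14 in Smoc1, −0.90 in Tmem176b and −0.75 in Sdpr. The log2 fold change of Pamr1 in adipocytes was exactly 0, so its difference is its fall in preadipocytes alone and describes no response in adipocytes. The short RNA genes Rpph1 and Snora23 differed by −7.31 and −5.06; their levels vary strongly between libraries, and the call for Rpph1 in preadipocytes was lost without Aclyf/f library 1 or 3, any 1 of the 3 Acly-/- libraries, or Acly-/- adipocyte library 1.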

How the results depend on the processing

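None of the named genes compared and none of the overall counts reversed under the alternatives run, although the median of the acetyl-CoA list changed sign with the same FPKM sum. The number of genes called, 4966, was 4573 with a replicate block, 4174 with only the 6 preadipocyte libraries, 5128 with no filter and 5097 after quantile normalization, and leaving out 1 library in turn gave 4070 to 5111 (higher 1890 to 2378, lower 2180 to 2733). The replicate block took away no call of Acly and 20 of 386 named results, and same-numbered libraries did not deviate together (correlations of deviations −0.10, −0.06 and −0.19). Scaling all libraries to the same FPKM sum gave 4676 calls of which 34.7% were higher, against 46.8% otherwise, and moved the median log2 fold change of all genes by −0.08. Leaving out 1403 short RNA genes first, an alternative chosen after seeing the data, gave 38.0% higher. Calls of at least 1 on the log2 scale rose from 602 to 1010 with a pseudocount of 0.1 and were 577 to 639 without 1 library. Leaving out 1 library, the stage difference was called in 5310 to 5831 genes and the log2 fold change of Acly ranged from −2.77 to −2.73. Over the other alternatives the stage difference was called in 5341 (same FPKM sum) to 6533 genes (library weights), and Acly ranged from −2.83 (pseudocount 0.1 or same FPKM sum) to −2.73 (library weights). Genes under about 0.3 FPKM rest on few fragments, so their folds are uncertain. Without Acly-/- library 3 the counts of genes higher and lower were 1984 and 2341.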

Other observations

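Several lists have not been described above. Of 76 mitochondrial ribosomal proteins 24 rose (31.6%) and 4 fell (5.26%), and with libraries scaled to the same FPKM sum 14 rose and 10 fell. Without Acly-/- library 3, 18 rose and 3 fell. Of 82 cytosolic ribosomal proteins 10 rose (12.2%) and 3 fell (3.66%) in preadipocytes, and in adipocytes 65 rose. The rises in preadipocytes numbered 16 without Aclyf/f library 1 and 5 without Aclyf/f library 3 or Acly-/- library 3, and the falls 0 without Aclyf/f library 2 or 3 and 1 without Acly-/- library 3. Of 29 genes of DNA replication 5 rose (17.2%) and 4 fell (13.8%), shares near or under the background, or 1 and 7 with the same FPKM sum. Of 38 mitochondrial carriers 13 rose (34.2%) and 9 fell (23.7%), or 8 higher without Aclyf/f library 3 or Acly-/- library 3.

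Among genes that respond to low oxygen 9 of 20 rose (45%) and 4 fell (20%). Of 25 immediate early genes 5 rose (20%) and 7 fell (28%), shares near the background of 19.7% and 22.4%. Enzymes that modify and cross-link collagen were divided in preadipocytes, 5 of 21 higher (23.8%) and 7 lower (33.3%). In adipocytes 15 were higher and none lower.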
